A study of Homo sapiens with 5 samples.

Results

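VCaP-only LSD1 sites inside genes are places where the lysine demethylase LSD1, encoded by KDM1A, was called by chromatin immunoprecipitation and sequencing (ChIP-seq) in VCaP cells, with no overlapping call in LNCaP cells. They were chosen from the VCaP LSD1 peak list as peaks on chromosomes 1 to 22 and X that shared no base with an LSD1 or H3T6ph peak of LNCaP, that overlapped a gene interval of the RNA table, and that lay at least 1 kb from every end of such an interval. A total of 2935 of the 9814 VCaP LSD1 peaks on these chromosomes met the rule, which is 29.9%, and the 3 peak lists of the series held 25987 peaks in all. The choice used the peak calls themselves, so the number of sites, their scores and their distance from LNCaP peaks are given as descriptions. All positions are in hg19.

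The series asked what LSD1 does in androgen signalling in VCaP and LNCaP, both human prostate cancer cell lines grown from metastases. There were 5 samples, 1 per group: LSD1 ChIP-seq in VCaP, LSD1 ChIP-seq in LNCaP, ChIP-seq in LNCaP for H3T6ph, which is phosphorylation of threonine 6 on histone H3, and RNA-seq of LNCaP transfected with an LSD1 siRNA or with a control siRNA. The ChIP samples were untransfected. All samples carry the same passage label, and all cells spent 3 days in charcoal-stripped serum without phenol red ahead of a hormone step, whose agent the labels do not name. No RNA of VCaP was analysed here, so the expression values below are those of LNCaP at genes where only VCaP had the site. With 1 sample per group no difference has a replicate check, and the 95% intervals given are Wilson intervals for shares and order-statistic intervals for medians, which cover counting error only. The depth of the ChIP samples is unknown.

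LSD1 removes methyl groups from histone H3 lysines and works within the CoREST and NuRD corepressor complexes. Many enhancers of prostate cells, among them ones bound by the pioneer factor FOXA1, lie in introns, far from promoters. VCaP is known for the TMPRSS2-ERG fusion, which places the ETS factor ERG under androgen control, and LNCaP does not carry it. H3T6ph, a mark placed by protein kinase C, has been described as altering which lysine LSD1 acts on. A site in the VCaP list alone is one that was not called in LNCaP, and LNCaP signal below the calling threshold was not measured here.

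The sites inside genes made up 37.6% (36.5 to 38.6%) of the 7813 VCaP LSD1 peaks without an LNCaP counterpart. A further 1378 lay within 1 kb of a gene end and 3500 lay between genes. Among LNCaP LSD1 peaks, the matching class, called in neither other list and inside genes, held 4605 peaks, which is 45.6% (44.6 to 46.5%) of the 10107 LNCaP-only peaks. Taken over all peaks of a line, the class was 29.9% (29.0 to 30.8%) of the VCaP list and 39.5% (38.6 to 40.4%) of the LNCaP list. Seen from the gene side, 3689 VCaP LSD1 peaks lay inside genes away from the ends, and 79.6% (78.2 to 80.8%) of them had no LNCaP counterpart, as had 79.6% (78.8 to 80.4%) of all VCaP LSD1 peaks, so the share was not particular to gene interiors.

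Most of the sites had low scores. The authors gave each peak a score whose scale is not stated, with a minimum of 50 in the VCaP list. The median score of the sites was 58.2, with quartiles of 53.2 and 66.8, against a median of 66.5 for VCaP peaks inside genes that overlapped an LNCaP peak. VCaP-only peaks at gene ends had a median of 62.3 and those between genes 58.6. Only 78 sites (2.66%) scored 100 or more, and 4 scored 200 or more. Among VCaP peaks inside genes, those without an LNCaP counterpart were 88.2% (86.2 to 89.9%) at scores of 50 to 55, 68.2% (63.8 to 72.2%) at 75 to 100 and 41.6% (34.6 to 48.9%) at 100 to 200. Of the sites, 30.2% scored under the lower quartile of the whole VCaP list and 16.4% at or over its upper quartile.

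The sites were somewhat narrower than the VCaP list as a whole, with a median of 779 bases and quartiles of 623 and 1034 bases. All VCaP LSD1 peaks on these chromosomes had a median of 850 bases and quartiles of 655 and 1133 bases. VCaP-only peaks between genes had a median of 752.5 bases, whereas those at gene ends had 1006 bases and shared peaks inside genes 989.5 bases. Only 90 sites were 2 kb or wider. The widest covered 5588 bases at chr13:111315160-111320747 in CARS2, which encodes a mitochondrial cysteinyl-tRNA synthetase, with a score of 54.8. The next were 4725 bases at GAL3ST3 on chromosome 11 and 4481 bases at PDE4DIP on chromosome 1.

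**Figure D1:**
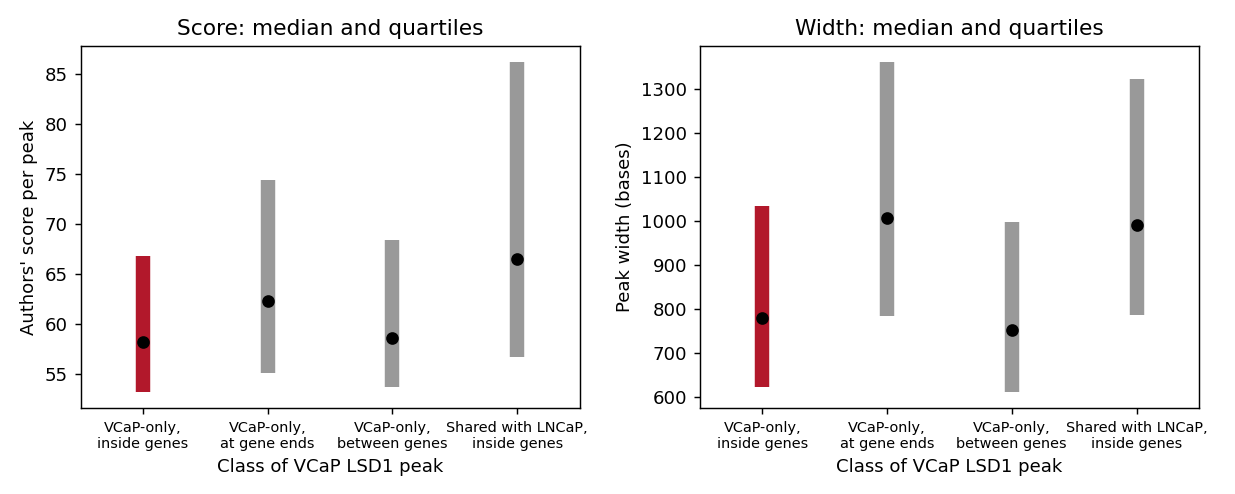
Score given by the authors (left) and peak width in bases (right) of VCaP LSD1 peaks in 4 classes, with the median as a point and the bar from the lower to the upper quartile. The VCaP-only peaks inside genes have a median score of 58.2 and a median width of 779 bases, below the shared peaks inside genes at 66.5 and 989.5 bases; the axes do not start at 0.

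The site with the highest score stood far above the others. It lay at chr5:159349546-159351333 inside ADRA1B, the gene of the alpha-1B adrenergic receptor, 5.805 kb from the nearest gene end, and scored 665.55. LNCaP had its nearest LSD1 peak 44.0 kb away. The second, at chr16:78354877-78355475, scored 294.87 and lay 221.5 kb deep in WWOX, a very long gene at a common fragile site. Next came sites in MICALL2, a regulator of membrane traffic (score 223.64, chromosome 7), and in SULT2B1, a sulfotransferase for cholesterol and steroids (score 216.5, chromosome 19).

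The others of the 10 highest scored 143.18 to 177.28. They lay in NBPF1, FHIT, SPHKAP, SPIDR, an interval of ABHD12 and PYGB, and an interval of ERCC5, BIVM and POGLUT2. FHIT is, like WWOX, a fragile-site gene, SPIDR acts in DNA repair by recombination, and ERCC5 encodes a nuclease of nucleotide excision repair. The sites in FHIT and SPHKAP were only 209 and 237 bases wide. NBPF1 belongs to a family of near-identical copies, so the place of its site is uncertain. No genome of the build was used here, and no sequence of a site is shown.

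The sites were spread thinly through gene interiors. The median distance to the nearest end of a gene interval was 31.4 kb (29.2 to 33.2 kb), with quartiles of 11.6 and 76.8 kb. A total of 555 sites (18.9%) lay more than 100 kb from any such end. Where an interval joins several genes, the ends of genes inside it were not counted, so distances there can be overstated. The deepest were 978 kb inside CNTNAP2, 964 kb inside the MACROD2 interval and 893 kb inside PTPRD. CNTNAP2 encodes a neuronal adhesion protein and PTPRD a receptor tyrosine phosphatase. At the limit of the rule, the nearest sites on the inner side lay 1.00 kb from an end in LCP1 and PTPRJ (scores 52.8 and 53.9), and the nearest left out lay 0.994 kb from an end in BRAT1 (score 54.1) and 0.983 kb in FBXO9 (score 62.2). At the other limit, the closest site to an LNCaP peak had a gap of 21 bases, in the interval of APOLD1, and the slightest overlap that left a peak out was 17 bases.

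Per Mb of gene interior the sites numbered 2.51, counted over 1170 Mb of gene intervals at least 1 kb from any end. Density varied little with depth into the gene up to 100 kb, at 2.39 sites per Mb from 2 to 5 kb, 2.83 from 20 to 50 kb and 2.54 from 50 to 100 kb. It was 2.20 from 100 to 200 kb and 1.74 beyond 200 kb. LNCaP-only peaks inside genes ran at 3.61 per Mb from 2 to 5 kb, 4.49 from 50 to 100 kb and 2.80 beyond 200 kb. Both classes were sparser in the deepest interiors. VCaP peaks shared with LNCaP thinned out more with depth, at 0.798 per Mb from 2 to 5 kb and 0.354 beyond 200 kb. The same held by gene length: intervals over 500 kb had 1.95 VCaP-only sites per Mb, against 2.86 in intervals of 20 to 50 kb.

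**Figure D2:**
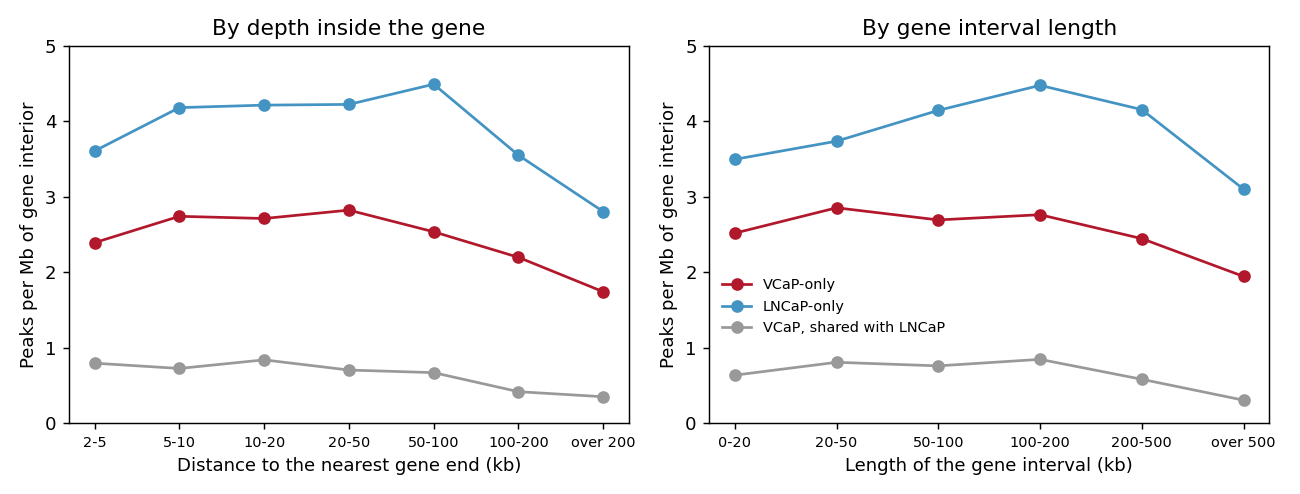
Peaks per Mb of gene interior by distance of the peak centre to the nearest end of a gene interval in kb (left) and by length of the gene interval in kb (right), for VCaP-only LSD1, LNCaP-only LSD1 and VCaP LSD1 peaks shared with an LNCaP list. VCaP-only sites run at 2.39 per Mb from 2 to 5 kb and at 1.74 per Mb beyond 200 kb.

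Along the genome the sites were uneven between chromosomes. Chromosome 21 had 5.25 per Mb of gene interior, chromosome 19 had 4.92, chromosome 12 had 4.34, chromosome 20 had 3.75 and chromosome 8 had 3.72. At the other end were chromosome 16 with 1.06 per Mb (36 sites) and chromosome X with 0.411 (19 sites). LNCaP-only peaks inside genes followed another order. On chromosome 19 the densities were 4.92 per Mb for VCaP-only and 2.63 for LNCaP-only, and on chromosome 16 they were 1.06 for VCaP-only and 4.46 for LNCaP-only.

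The ratio of VCaP-only to LNCaP-only density was 0.637 over all chromosomes and ranged between 0.238 on chromosome 16 and 1.87 on chromosome 19. It exceeded 1 on chromosomes 8, 12, 19 and 21 alone. Shares of the other VCaP-only classes leaned the same way on some of these chromosomes. Chromosome 12 held 8.42% (7.46 to 9.48%) of the sites inside genes, 7.57% of VCaP-only peaks between genes and 9.22% of those at gene ends, while it holds 4.86% of gene interior. Chromosome 16 held 1.23% of the sites inside genes, 1.51% of VCaP-only peaks between genes and 0.726% of those at gene ends, while it holds 2.89% of gene interior. The copy number of the chromosomes in either line was not measured here, and its part in these densities was not tested.

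**Figure D3:**
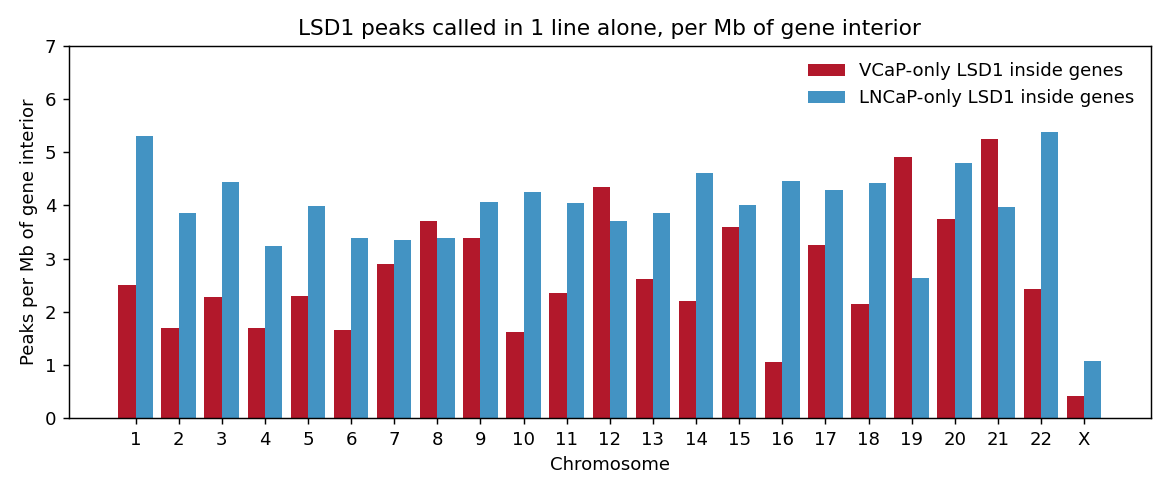
Peaks per Mb of gene interior on each chromosome for LSD1 peaks called in VCaP alone and in LNCaP alone. VCaP-only sites range from 0.411 per Mb on chromosome X to 5.25 on chromosome 21, and exceed LNCaP-only sites on chromosomes 8, 12, 19 and 21.

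Most sites were isolated. The median distance to the next site was 163 kb (153 to 175 kb), and 152 sites (5.18%) had another within 10 kb. Of 2140 gene intervals that held a site, 1628 (76.1%) held 1, 353 held 2, 133 held 3 or 4 and 26 held 5 or more. The densest window of 1 Mb, on chromosome 11 from 63 to 64 Mb, had 11 sites among 21 VCaP LSD1 peaks, where LNCaP had 4 LSD1 peaks. The next, on chromosome 5 from 59 to 60 Mb, had 10 sites among 15 VCaP peaks, and LNCaP had 8. On chromosome 19 from 18 to 19 Mb there were 9 sites among 26 VCaP peaks, and LNCaP had 11.

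The genes with the most sites were long. PDE4D, a cyclic AMP phosphodiesterase gene, held 13 sites in an interval of 1579 kb that it shares with PART1, a prostate-enriched noncoding RNA. The same interval held 17 VCaP LSD1 peaks in all and 16 LNCaP LSD1 peaks. Its expression in LNCaP was 0.920 FPKM after LSD1 siRNA and 0.680 FPKM after control siRNA (FPKM, fragments per kilobase of transcript scaled to library size). An interval of 1339 kb with ANKS1B, APAF1 and GARIN6 on chromosome 12 held 9 sites and 2 LNCaP LSD1 peaks. ANKS1B was at 1.98 FPKM after LSD1 siRNA and 1.85 FPKM after control siRNA. APAF1, the scaffold of the apoptosome, was at 4.55 FPKM after LSD1 siRNA and 4.27 FPKM after control siRNA. The joined interval does not say which of these genes is around each site.

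A further interval, of 316 kb on chromosome 11, held 8 sites and 1 LNCaP LSD1 peak. It takes in SLC22A9, SLC22A10, LGALS12, PLAAT2, PLAAT4 and PLAAT5, genes of organic anion transport, of a galectin and of phospholipid acyltransferases. Of these PLAAT4 alone was expressed in LNCaP, at 54.6 FPKM after LSD1 siRNA and 43.5 FPKM after control siRNA. This interval had 25.3 sites per Mb, about the density of HMGA2, a chromatin architecture gene with 5 sites (24.0 per Mb), and far above the 2.51 of gene interiors as a whole.

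The genes that follow are named after their values were seen, because the first 10 genes by number of sites fall in only 3 intervals. SPIDR, MYO16, DAB1, CPQ, RORA and CNTNAP2 held 7 sites each, and STK3, a kinase of the Hippo pathway, held 6. RORA, a nuclear receptor, had 8 LNCaP LSD1 peaks beside its 7 sites and was at 5.10 FPKM after LSD1 siRNA and 4.77 FPKM after control siRNA. MYO16 and DAB1 were below 1 FPKM in both libraries, as was ST18, a zinc finger gene with 5 sites and 0.00640 FPKM after LSD1 siRNA, which was listed at 0 after control siRNA. SPIDR was at 21.7 FPKM after LSD1 siRNA and 22.3 FPKM after control siRNA. Genes with many sites thus included ones with clear and ones with almost no LNCaP expression.

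A total of 3039 gene symbols had an interval with a site, 2472 of them protein-coding, 294 long noncoding and 206 microRNA genes. The intervals of the table can join overlapping genes: 2042 sites (69.6%) lay in the interval of 1 symbol and the rest, apart from 16 without a named gene, in intervals of several, which count the same sites for each gene, carry no strand, and do not say which gene is around the site. Here and below, a gene said to hold a site is one whose interval does. Of 18376 protein-coding genes, 2465 held a site, a share of 13.4%. The share was higher in longer genes, at 1.75% for intervals under 20 kb, 17.6% at 50 to 100 kb and 59.3% over 500 kb. LNCaP-only LSD1 peaks lay inside 3359 of the 18376 protein-coding genes, at 2.40% for intervals under 20 kb and 84.5% over 500 kb. The 1114 genes with both were 45.2% of the genes with a VCaP-only site. They were 33.2% of the genes with an LNCaP-only site, against the 13.4% of all protein-coding genes that held a VCaP-only site. Both classes were more frequent in longer genes, and the overlap among genes of like length was not computed.

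An LNCaP LSD1 or H3T6ph peak lay elsewhere in the same gene interval for 1886 of the 2935 sites, or 64.3% (62.5 to 66.0%). The longest interval around a site had a median of 149 kb, against 22.9 kb for all gene intervals. The share for other peaks or for intervals of like length was not computed, so 64.3% is a description only. Few of the sites lay close to an LNCaP peak. An LNCaP LSD1 peak lay within 1 kb of 51 sites (1.74%), within 10 kb of 303 (10.3%) and within 100 kb of 1870 (63.7%), with a median distance of 65.2 kb. For H3T6ph the median distance was 160 kb, and 12 sites (0.409%) had such a peak within 1 kb.

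Genes around the sites reached 1 FPKM in LNCaP slightly more often than protein-coding genes as a whole, but not clearly so at a higher minimum. At least 1 FPKM in either RNA library was reached by 1675 of the 2465 genes, or 68.0% (66.1 to 69.8%), against 63.3% of all 18376. At a minimum of 5 FPKM the shares were 51.4% (49.4 to 53.4%) of genes around the sites and 49.8% of all. Among expressed genes, the median after control siRNA was 11.1 FPKM (10.1 to 11.98) around the sites and 13.2 FPKM (13.0 to 13.6) over all. Genes around LNCaP-only sites reached 1 FPKM in 67.6% (66.0 to 69.2%), which overlapped the 66.1 to 69.8% of genes around VCaP-only sites. Interval length moved with these shares. In intervals under 20 kb the share was 65.9% (57.4 to 73.5%) with a VCaP-only site and 54.6% (53.4 to 55.7%) without, and at 100 to 200 kb it was 75.5% (72.0 to 78.7%) with and 67.8% (65.3 to 70.1%) without. At 50 to 100 kb the shares were 78.2% (74.4 to 81.6%) with and 72.4% (70.6 to 74.2%) without. At 200 to 500 kb the shares were 54.5% with and 53.4% without, and their intervals overlapped. Over 500 kb the shares were 46.7% (40.0 to 53.4%) with and 33.3% (26.2 to 41.4%) without, and these intervals also overlapped. Genes with an LNCaP-only site had like shares by length, at 70.1% (62.9 to 76.3%) under 20 kb and 74.7% (71.8 to 77.4%) at 100 to 200 kb. At 200 to 500 kb their share was 57.3% (53.8 to 60.7%), and over 500 kb it was 43.8% (38.3 to 49.5%).

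**Figure D4:**
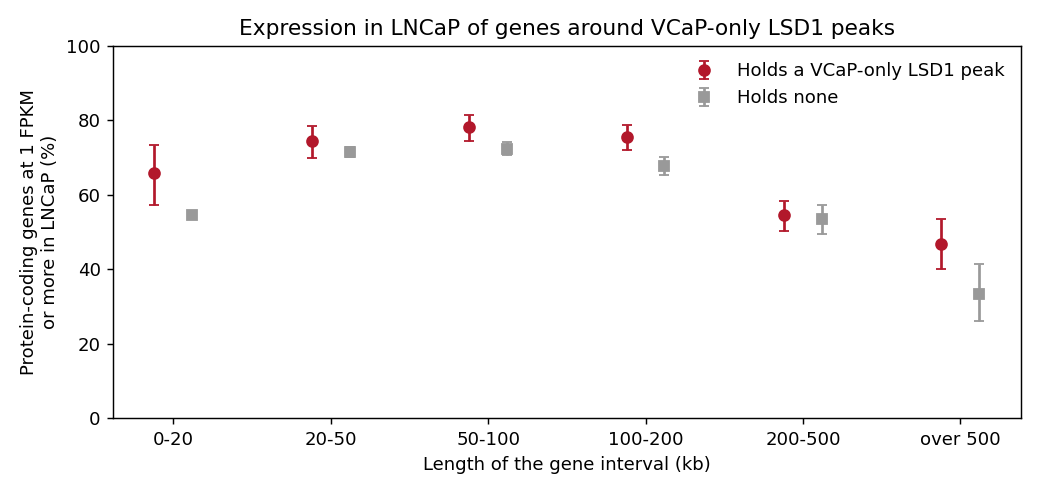
Percentage of protein-coding genes at 1 FPKM or more in either LNCaP library, by length of the gene interval in kb, for genes with a VCaP-only LSD1 site (circles) and genes without one (squares); bars are 95% Wilson intervals. Genes with a VCaP-only site stand at 65.9% under 20 kb and 46.7% over 500 kb, and those without one at 54.6% and 33.3%.

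Genes with more sites were less often expressed, and they were also longer. The share at 1 FPKM or more was 69.5% (67.3 to 71.5%) of 1856 genes with 1 site, 64.4% (59.7 to 68.9%) with 2 and 43.8% (28.2 to 60.7%) of 32 genes with 5 or more. The median interval was 97.4 kb with 1 site and 534 kb with 5 or more, and the part of length in the lower share was not tested. The most highly expressed genes whose interval held a site were RPL31, RPS10, RPL15 and RPL5, which encode ribosomal proteins, and KRT8, a luminal keratin. Each shares its interval with at least 1 other gene, so the site need not lie in the gene named. RPL31 was at 1651 FPKM after LSD1 siRNA and 1583 FPKM after control siRNA, and KRT8 was at 718 FPKM after LSD1 siRNA and 929 FPKM after control siRNA.

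After LSD1 siRNA in LNCaP, 1649 of the 1675 expressed genes (98.4%) were within 1.5-fold of control siRNA, against 97.8% of all expressed protein-coding genes. The targeted gene, KDM1A, which holds none of the sites, was at 6.87 FPKM after LSD1 siRNA, 18.6% of the 37.0 FPKM after control siRNA. On the scale of log2(FPKM + 1), where 1 FPKM is the pseudocount and changes of low genes are understated, the median difference over the 1675 expressed genes was -0.00032 (-0.012 to 0.013), against -0.012 (-0.017 to -0.0088) over 11623 expressed protein-coding genes. Above 0 lay 836 genes and below 0 lay 839. These values describe LNCaP, where LSD1 was not called at the sites.

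Past 2-fold, 1 gene was higher, which is 0.0597% against 0.112% of all expressed protein-coding genes, and 2 were lower, which is 0.119% against 0.129%. PERP, a p53 target of desmosomes, was at 111 FPKM after LSD1 siRNA and 53.8 FPKM after control siRNA, a log2 difference of 1.04. Its site scored 66.7 and lay 11.2 kb from the nearest LNCaP LSD1 peak. SPAG16, a gene of the sperm axoneme, was at 2.91 FPKM after LSD1 siRNA and 7.46 FPKM after control siRNA (log2 difference -1.11). MICOS10-NBL1 was at 3.23 FPKM after LSD1 siRNA and 7.64 FPKM after control siRNA (-1.03), but it is a readthrough gene that shares reads with its 2 neighbours, so its value is uncertain.

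At 1.5-fold the counts were 9 higher (0.537%, against 1.04% of all expressed protein-coding genes) and 17 lower (1.01%, against 1.17%). The counting interval of the share higher, 0.283 to 1.02%, ended just under the share over all genes, and that of the share lower, 0.635 to 1.62%, held it. Calls in the authors' deposited table covered 9 expressed genes higher (0.537%, against 0.430%) and 4 lower (0.239%, against 0.602%). That table tests each RefSeq transcript on 1 library a side, so its calls compare those libraries.

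Many of the calls in the authors' deposited table were of single transcripts rather than of whole genes. In the authors' deposited table a transcript of FOXP1, a forkhead factor, was at 1.75 FPKM after LSD1 siRNA and 6.90 FPKM after control siRNA, while FOXP1 summed over transcripts was at 8.55 FPKM after LSD1 siRNA and 10.1 FPKM after control siRNA. SPOCK1, a proteoglycan gene with 4 sites, was called lower in the authors' deposited table at 2.03 FPKM after LSD1 siRNA and 4.30 FPKM after control siRNA. THOP1, an oligopeptidase gene, was called higher in the authors' deposited table at 71.3 FPKM after LSD1 siRNA and 42.1 FPKM after control siRNA. PERP was also called higher and SPAG16 lower in the authors' deposited table. The other genes with a transcript called in the authors' deposited table were ATP7B, FGFR1, FSBP, MSL2, MYH14, MYO9B, PHLDB2, RCAN2, SEMA6D, TNIK and TRAF3. Transcripts of FGFR1, FSBP, RCAN2 and SEMA6D were listed at 0 after control siRNA in the authors' deposited table, and those of MSL2 and PHLDB2 were listed at 0 after LSD1 siRNA. For RCAN2 and SEMA6D the transcript was called higher in the authors' deposited table while the sum over transcripts was lower, at 0.451 FPKM after LSD1 siRNA and 0.813 FPKM after control siRNA for RCAN2 and at 1.56 FPKM after LSD1 siRNA and 1.82 FPKM after control siRNA for SEMA6D.

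**Figure D5:**
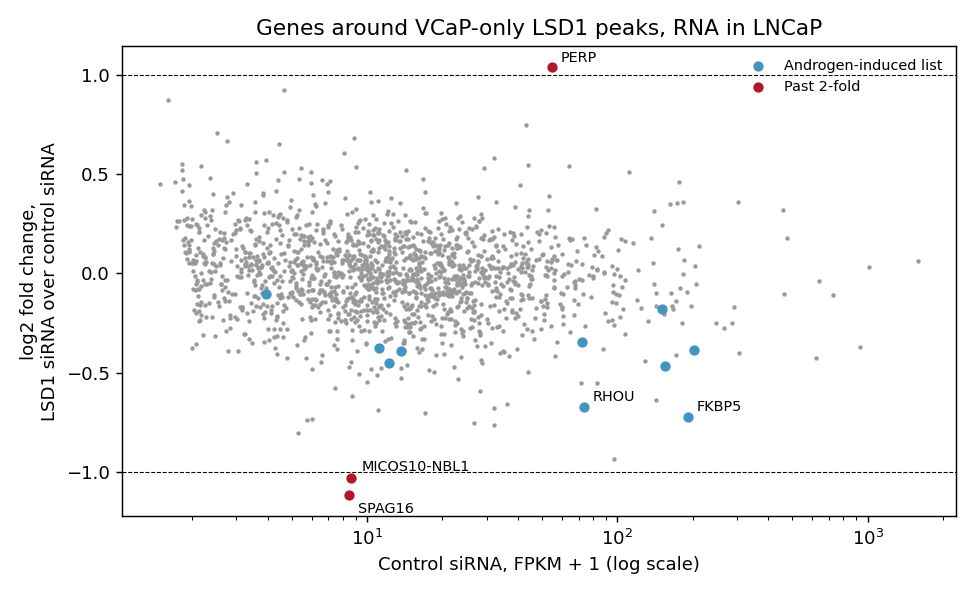
Log2 fold change, LSD1 siRNA over control siRNA in LNCaP with 1 FPKM added, against FPKM + 1 after control siRNA on a log axis, with 1 point per expressed protein-coding gene around a VCaP-only LSD1 site. The dashed lines mark 2-fold, past which PERP lies above and SPAG16 and MICOS10-NBL1 below, and the 10 genes of the androgen-induced list are all below 0.

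Androgen-induced genes around the sites had lower values after LSD1 siRNA, as were those without a site. Of 49 listed genes 10 held a site (20.4%, 11.5 to 33.6%), against 13.4% of all protein-coding genes. The list had a median interval of 52.0 kb, and at 50 to 100 kb the share over all genes was 17.6%. All 10 were below 0, with a median log2 difference of -0.39, the same as over the whole list. The 39 without a site had a median of -0.41, and 34 of them were below 0. FKBP5, a co-chaperone of steroid receptors, was at 115 FPKM after LSD1 siRNA and 190 FPKM after control siRNA. RHOU was at 45.0 FPKM after LSD1 siRNA and 72.3 FPKM after control siRNA. These were the only members of the list with a site past 1.5-fold, and none was past 2-fold. TPD52, a vesicle trafficking gene often gained in prostate cancer, held 3 sites and no LNCaP LSD1 peak, but its interval held 3 LNCaP H3T6ph peaks. It was at 133 FPKM after LSD1 siRNA and 150 FPKM after control siRNA. HOMER2, TRPM8, EAF2, ACSL3, ABCC4, TUBA3D and INPP4B held 1 site each. The interval of TUBA3D is shared with 4 other genes, that of FKBP5 with 2 and that of RHOU with 1. For these the site need not lie in the gene named. Of 17 androgen-repressed genes only SI, which encodes sucrase-isomaltase, held a site, and it was below 1 FPKM in both libraries.

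Among prostate lineage and nuclear receptor factors, 14 of 43 genes (32.6%, 20.5 to 47.5%) held 24 sites. Their list had a median interval of 112 kb, and over all protein-coding genes in intervals of 100 to 200 kb the share was 30.7%. RUNX2 and THRB held 4 each, and GRHL2, a grainyhead factor of epithelia, held 3, the best with a score of 131.7. The RUNX2 interval is shared with 2 other genes and that of THRB with 1, so their sites need not lie in the gene named. The GRHL2 interval held no LNCaP LSD1 peak but 3 LNCaP H3T6ph peaks. ERG itself held 2 sites, with scores of 113.28 and 61.72, and neither LSD1 nor H3T6ph was called in its interval in LNCaP. ERG was at 0.120 FPKM after LSD1 siRNA and 0.0135 FPKM after control siRNA, which is next to no expression in either library. RUNX1 and PPARD held 2 and 1, and the RUNX1 interval is shared with 1 other gene. The median log2 difference of the 11 expressed ones was 0.02, the same as for the list, and none was past 1.5-fold.

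In a list of 23 genes made of ERG itself and genes known as ERG or ETS fusion targets, 6 held a site (26.1%, 12.5 to 46.5%). They were ERG, already counted among the lineage factors, and CACNA1D, ZNF385B, VIM, KCNH8 and CRISP3. The intervals of ZNF385B and KCNH8 are shared with 1 other gene each. The list had a median interval of 54.3 kb, and 17.6% of all protein-coding genes in intervals of 50 to 100 kb held a site. VIM, the gene of the intermediate filament vimentin, was at 47.0 FPKM after LSD1 siRNA and 31.1 FPKM after control siRNA (log2 difference 0.58). CRISP3, a secreted protein gene, was at 3.12 FPKM after LSD1 siRNA and 1.52 FPKM after control siRNA (0.71). With 1 FPKM added CRISP3 was past 1.5-fold and VIM was just short of it. The 5 expressed ones had a median of -0.01, and the list had 0.01.

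Of 27 genes of the LSD1 complexes, 3 held a site, a share of 11.1% (3.85 to 28.1%). They were MTA1 and CHD3 of NuRD and CTBP2, a corepressor, with 1 site each. The median interval of this list was 57.0 kb, and 17.6% of all protein-coding genes in intervals of 50 to 100 kb held a site. The 3 genes had a median log2 difference of -0.10, against -0.07 over the list, and none was past 1.5-fold.

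Wnt, TGF-beta and Notch genes held a site in 7 of 38 (18.4%, 9.22 to 33.4%), with a median interval of 92.8 kb. In intervals of 50 to 100 kb the share over all protein-coding genes was 17.6%. Among the 7 were MAML3 with 2 sites and the receptor genes ACVR2A, NOTCH3, LRP5, BMPR1B and NOTCH2 with 1 each, with none past 1.5-fold. The ACVR2A interval is shared with 2 other genes and that of MAML3 with 1, so those sites need not lie in the gene named. Neuronal adhesion and other very long genes held a site in 26 of 39 (66.7%, 51.0 to 79.4%), with a median interval of 1170 kb, and 76 sites in all. Over all protein-coding genes above 500 kb the share was 59.3% (54.1 to 64.3%).

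The LNCaP libraries carried the markers of luminal prostate epithelium, all 15 of them at 1 FPKM or more, with sums of 4809 FPKM after LSD1 siRNA and 6053 FPKM after control siRNA. Of 8 basal markers 3 reached 1 FPKM, with sums of 13.1 FPKM after LSD1 siRNA and 7.35 FPKM after control siRNA. For neuroendocrine markers the count was 2 of 7, with sums of 242 FPKM after LSD1 siRNA and 188 FPKM after control siRNA. For fibroblast and smooth muscle markers it was 4 of 7, with sums of 69.6 FPKM after LSD1 siRNA and 49.2 FPKM after control siRNA. Immune markers reached it in 1 of 4, with sums of 16.2 FPKM after LSD1 siRNA and 11.0 FPKM after control siRNA. Endothelial markers reached it in 1 of 3, with sums of 2.51 FPKM after LSD1 siRNA and 1.99 FPKM after control siRNA. KRT8 and KRT18, TP63 and VIM were the markers with a site. The identity of the VCaP sample was not checked, because no VCaP RNA was analysed here.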

How the data were processed

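Per the submitters' processing notes, Bowtie2 2.0.0, TopHat2 2.0.4, MACS2, Cuffdiff 2.0.1 and hg19 were used. For the control used in peak calling and the treatment of duplicate reads, nothing was stated (not given in the sources used here). The deposited peak lists give 1 score per peak, whose scale is not stated, and hold no peak under 50. The deposited RNA table gives FPKM per RefSeq accession in each library, with the authors' p-values and q-values. FPKM gives no depth, and the depth of all samples is unknown.

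Peaks shared where they had at least 1 base in common. Gene intervals are the locus intervals of the RNA table, and gene ends are the ends of these intervals. Accessions were named by a RefSeq table (38934 of 40253, or 96.7%), and FPKM was summed per gene. A gene counted as expressed from 1 FPKM upward in at least 1 library, and fold changes used log2(FPKM + 1). With 1 sample per group there was no test. Overlaps and distances were computed in Python 3.11.15 with pandas 2.3.3 and intervals with statsmodels 0.14.6, and the overlap code was checked against bedtools 2.31.1 and tested on simulated data.

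The sites and all gene lists were chosen with earlier results of these data known. Genes were named by rule: the 10 highest scores, the 10 genes with the most sites, genes past 2-fold or called by the authors, up to 6 per list, the 3 widest, the 3 deepest, those nearest the 1 kb limit, the 5 highest FPKM, and KDM1A. Others are marked where they appear or follow from a count. The alternatives tried were the overlap that counts as shared, the score limit, the distance from gene ends, single-gene intervals, gene types, the FPKM minimum, the pseudocount and the fold. Results for some gene lists are not reported here.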

Additional observations from a re-analysis of the deposited data

How the results depend on the processing

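Of 63 alternative values, 45 stayed close to the reported ones and 18 moved; where they moved, the cause was not tested beyond what each setting does by construction. Keeping only the upper part of the VCaP list, split at the middle score, left 1227 sites and 1503 genes, with 1 gene lower past 2-fold. Keeping single-gene intervals left 1548 genes, gave 60.9% of sites with an LNCaP peak elsewhere in the gene, a median log2 difference of 0.015 and 1 gene lower past 2-fold. The median distance to a gene end was 33.7 kb for sites at least 2 kb from an end and 37.8 kb at 5 kb. At 5 kb, 68.4% of sites had an LNCaP peak elsewhere in the gene interval. Expressed genes were 59.6% over all gene types (56.8% of all genes), 71.9% at 0.5 FPKM (67.2% of all) and 51.4% at 5 FPKM (49.8% of all, inside the interval of 49.4 to 53.4%). Over all gene types 13 of 1807 genes were higher and 14 lower past 2-fold, where the shares over all genes were 0.840% higher and 1.11% lower. At 1.5-fold 9 were higher and 17 lower (1.04% and 1.17% of all genes), and a pseudocount of 0.1 FPKM gave 3 higher (0.413% of all genes). No paired analysis was possible because each group holds 1 sample. Without replicates or known depth, a site missing from the LNCaP lists was not detected there, which is not absence.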
